A study of Mus musculus with 30 samples.

Results

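The 10 genes described here are the subunits of the AP-1 transcription factor and the immediate early genes that are read beside them: Fos, Fosb, Fosl1 and Fosl2 of the Fos family, Jun, Junb and Jund of the Jun family, the related Atf3, and the early response genes Egr1 and Ier2. They were taken by name, and all 10 were among the 11137 genes of the normalized count table. Their levels were followed in luminal and basal epithelial cells sorted from the mammary glands of 17 mice, in 30 RNA libraries. The study asked how the loss of Rank, the receptor of the progesterone-induced cytokine Rankl, changes the mammary epithelium of virgin and parous mice.

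Each library came from the luminal or the basal cells of 1 mouse, separated by flow cytometry on CD24 and CD49f after cells positive for the leukocyte and endothelial antigens CD45 and CD31 had been gated out. K8imTmG mice carried a doxycycline-dependent Cre driven from the Krt8 promoter (K8rtta and TetO-Cre) and the mTmG reporter, and K8iΔRank mice carried the same alleles plus floxed Rank. The study's sorting scheme gives the luminal cells as GFP+, the mark of recombined cells in this reporter. Mice of both genotypes received doxycycline at 1 mg/ml from week 3 to week 8 of age according to the labels. Because Krt8 is a luminal keratin, Rank was to be deleted in luminal cells only, and the basal cells of K8iΔRank mice were neighbours of deleted cells that kept their own Rank. Virgin mice were age-matched to parous mice, which had been through a pregnancy and a period of involution. According to the methods K8imTmG mothers nursed until their pups were removed, whereas K8iΔRank mothers failed to lactate and were left for an interval of the same length. In parous mice genotype and lactation history therefore cannot be told apart. The luminal groups held 3 virgin K8imTmG, 3 virgin K8iΔRank, 5 parous K8imTmG and 4 parous K8iΔRank libraries. The basal groups held 3 virgin K8imTmG, 4 virgin K8iΔRank, 4 parous K8imTmG and 4 parous K8iΔRank libraries. Both lineages were sequenced from 13 of the mice, and libraries are named below by the number of the mouse.

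AP-1 is a dimer of a Jun protein with a Fos, Jun or ATF protein. Genes such as Fos, Jun, Egr1 and Ier2 are transcribed within minutes of a growth factor, cytokine or stress signal, without new protein being made first, and their transcripts decay quickly. In the osteoclast lineage Rank signals through Jun kinase and Fos, and in many tissues enzymatic dissociation of the living tissue is itself a stimulus for these genes. The glands here were chopped and digested with collagenase, dispase and trypsin before sorting, in every group alike, and no undissociated tissue was among the libraries, so the part of the signal that arose during dissociation was not tested.

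Over the 11137 genes the libraries held between 340445 and 3130420 deduplicated reads, with a median of 1853590, of which the 10 genes took 0.598 to 1.61% (median 1.04%). Reads on genes that the authors had filtered out are not in these sums. The summed normalized counts of the 12 luminal marker genes ranged from 5432 to 20947 in luminal and from 808 to 2359 in basal libraries, and those of the 10 basal markers from 65.3 to 331 in luminal and from 10952 to 17879 in basal libraries, so the lineage labels held. Tnfrsf11a, which encodes Rank, ranged from 9.57 to 18.6 normalized counts in virgin K8imTmG and from 11.5 to 23.8 in virgin K8iΔRank luminal libraries, which overlapped. In parous luminal libraries it ranged from 27.0 to 41.1 in K8iΔRank mice and from 12.8 to 64.9 in K8imTmG mice, where 2 libraries of the Clec2d-high set described below held 12.8 and 20.2 and the 3 others 49.3 to 64.9, all above the K8iΔRank ones. These libraries count only the 3′ end of a transcript, and a value from outside the deleted part would not check the genotype. The libraries also fell into 2 sets that no label names, seen in the transcript Clec2d at 0.641 to 8.68 normalized counts in 16 libraries and at 65.6 to 199 in the other 14. The Clec2d-high libraries had fewer of these reads (median 878946 against 2478110) and a larger mitochondrial share of them (3.36 to 6.37% against 1.66 to 3.13%). All luminal virgin K8imTmG libraries were Clec2d-low and all luminal virgin K8iΔRank libraries Clec2d-high, whereas all basal K8imTmG libraries were Clec2d-high and all basal virgin K8iΔRank libraries Clec2d-low. All luminal parous K8iΔRank libraries were Clec2d-low, and the luminal parous K8imTmG group (532, 534 and 558 low, 494 and 557 high) and the basal parous K8iΔRank group (787 and 798 low, 794 and 830 high) were mixed. Between the virgin genotypes of either lineage, and between stages in luminal K8iΔRank cells, the set and the comparison cannot be told apart, and results that move with the set are given with values inside 1 set where these exist. Within a lineage, a fit with the set as a term takes the set difference from the 1 mixed group only. These are 3 Clec2d-low and 2 Clec2d-high luminal libraries, and 2 and 2 basal ones. For the comparisons that coincide with the set such a fit called 0 of all genes tested. A call lost in it is therefore not a result about the gene.

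Several of these genes are known to be targets of the same factors that they encode, and the promoter windows of the genes with such letters are shown for that reason. RefSeq promoter sequences (GRCm38.p6, from 250 bases before to 50 bases after the transcription start) were held for 7 of the 10 genes, all but Fosl1, Egr1 and Ier2. Both strands were searched for the ATF/JUN element TTACNTCA, the EGR element GCGNGGGCG, the cyclic AMP element TGACGTCA, the AP-1 element TGANTCA and the CArG box. The ATF/JUN letters were found in the windows of Jun (chr4:95052368-95052397, minus strand, from -164 to -157 relative to the start) and Atf3 (chr1:191183325-191183354, minus strand, from -10 to -3). The EGR letters were found in those of Fosb (chr7:19310076-19310105, minus strand, from -50 to -42) and Fosl2 (chr5:32136383-32136412, plus strand, from -79 to -71). The stretches read 5′ to 3′ on the strand of the gene, with the matched element in capitals:
Jun: gcagcggagcaTTACCTCAtcccgtgagcc
Atf3: tattaatagcaTTACGTCAgcctgggattg
Fosb: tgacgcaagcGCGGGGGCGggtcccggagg
Fosl2: ccggctgcgcGCGGGGGCGgaagggcgcgc

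Of the 27025 promoters in the same table, 3.33% held the ATF/JUN letters and 5.55% the EGR letters. The remaining motifs, held by 1.88% (TGACGTCA), 7.93% (TGANTCA) and 1.57% (CArG box) of all promoters, were not among the letters of these windows. The windows of Fos, Junb and Jund held none of the searched letters. A match describes letters only, and nothing is known from these data about binding.

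**Figure D1:**
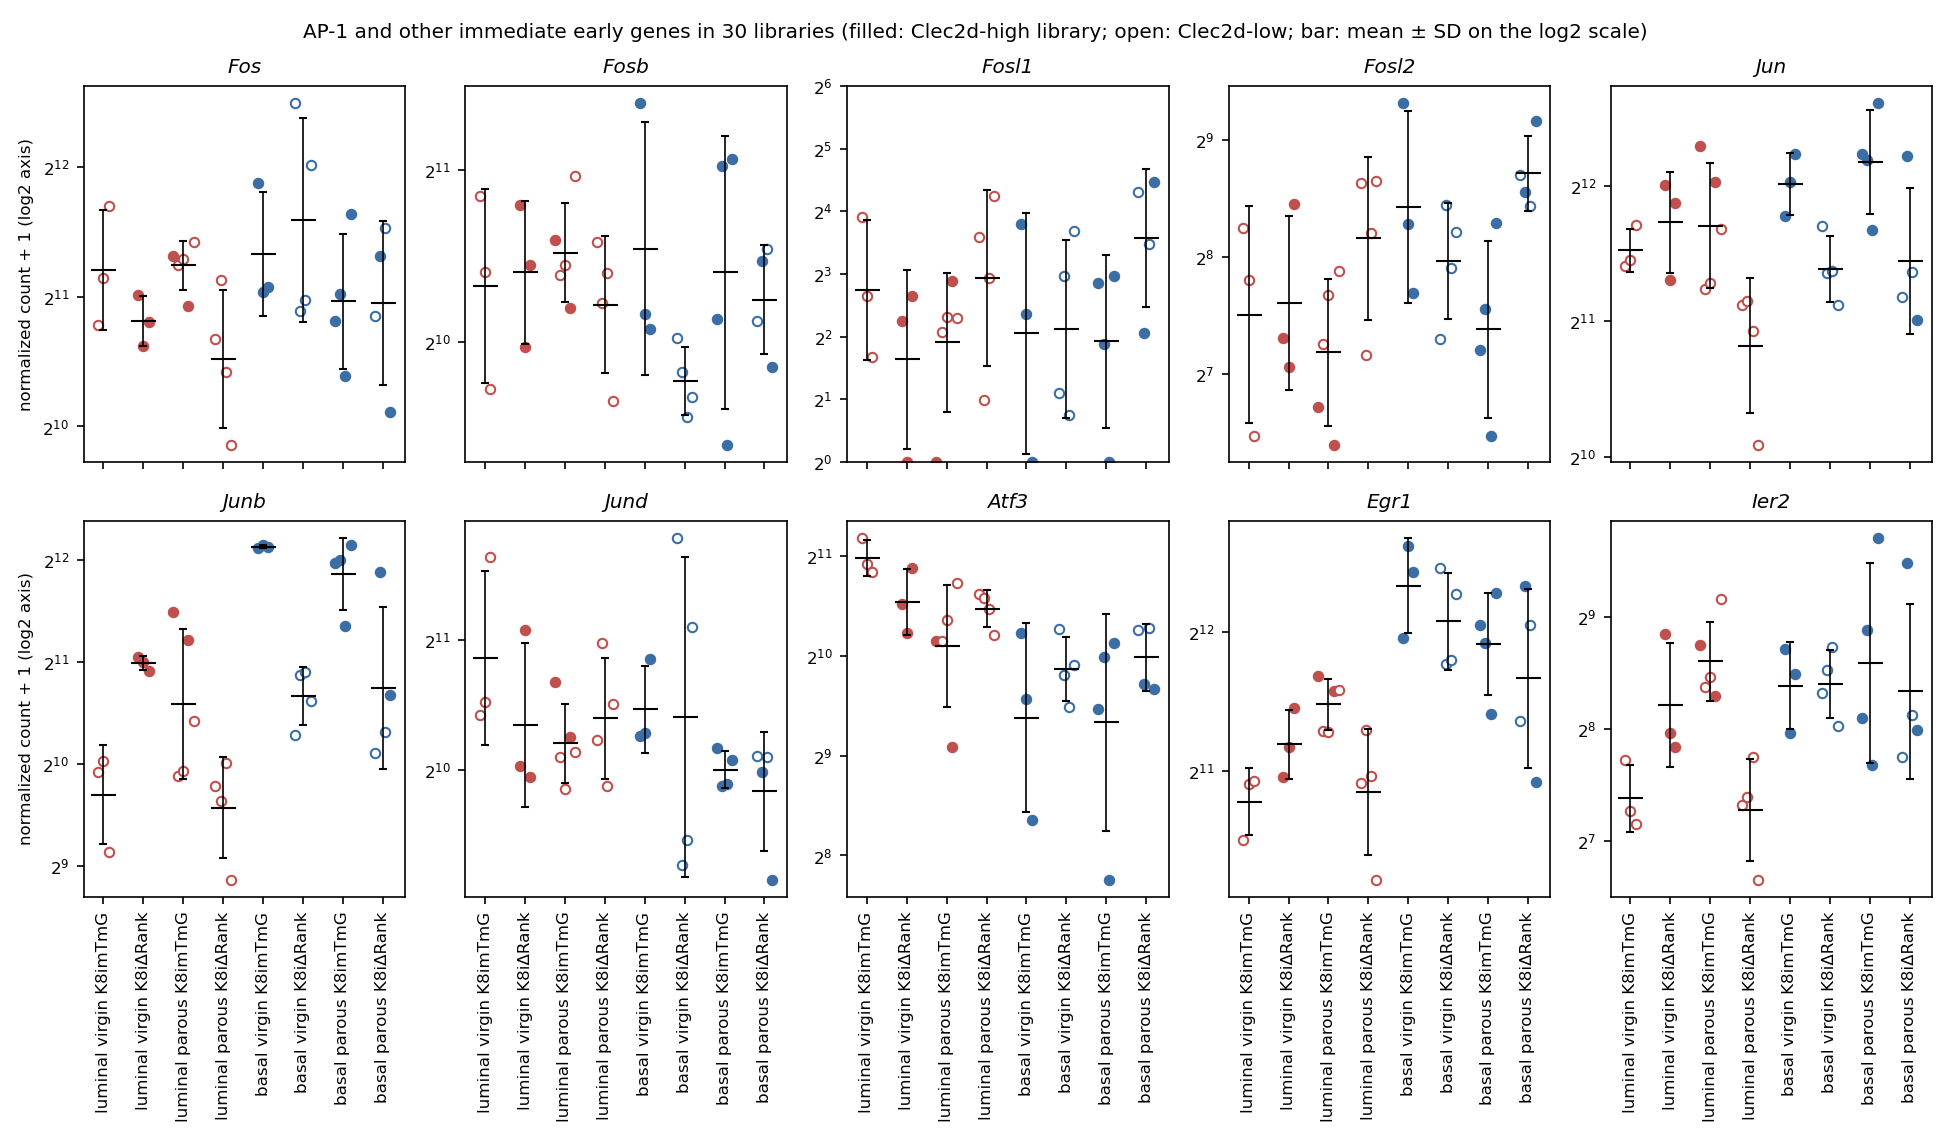
Normalized count plus 1 on a log2 axis for each of the 10 genes, in the 8 groups of lineage, stage and genotype. Each point is 1 library, luminal in red and basal in blue, filled for Clec2d-high and open for Clec2d-low libraries, and the bars give the mean and SD of the log2 values. Fosl1 stays at or under 21.2 normalized counts, and the filled Junb points sit above the open ones in luminal cells.

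All members but Fosl1 were read well above the counting floor in every library. Fosl1, the Fos relative best known from invasive epithelium, ranged from 0 to 21.2 normalized counts, held no read in 4 libraries and at most 3 reads in 13, and was too low to be tested in 5 of the 11 comparisons. Atf3, a stress-induced factor of the ATF family, varied most among the libraries, with its highest value 10.8 times its lowest, followed by Junb (9.76 times) and Ier2 (8.41 times). Fosb, which encodes a Fos protein that also exists as a stable short form, varied least (3.96 times). Fosl1 aside, whose counts were low and whose SD of log2 values inside the 8 groups was 1.35, that SD ran from 0.38 for Egr1 and 0.40 for Jun to 0.61 for Jund and 0.67 for Fosl2.

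The order of the group means differed among the members, and neighbours in that order mostly overlapped. The highest mean of Fos was that of basal virgin K8iΔRank cells (3460 ± 1858, SD, n = 4) and the lowest that of luminal parous K8iΔRank cells (1543 ± 550.3, n = 4), and every pair of neighbouring groups overlapped. Junb, the Jun protein that can oppose Jun at some promoters, ran from 4477 ± 50.5 in basal virgin K8imTmG cells (n = 3) to 791 ± 238 in luminal parous K8iΔRank cells (n = 4). In the Junb order the basal parous K8imTmG libraries all lay above the luminal virgin K8iΔRank ones, and the basal virgin K8iΔRank libraries all lay above the luminal virgin K8imTmG ones, while the other neighbours overlapped. For Ier2 only luminal virgin K8iΔRank and luminal virgin K8imTmG were neighbours that did not overlap. For Fosb, Fosl1, Fosl2, Jun, Jund, Atf3 and Egr1 every neighbouring pair overlapped. The share of such gaps over all genes was not counted. With groups this small, gaps between neighbours describe the values and are not a result about a member.

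Junb, Egr1 and Ier2 were higher in basal cells and Atf3 was higher in luminal cells, while Fos, Fosb and Jun did not pass the test between the lineages. Of the 10 members, 4 passed at an adjusted p under 0.05 (limma on log2 of the normalized count plus 1, adjusted over all genes), against 55.7% of the 11133 genes tested. edgeR called 6 of the 10 against 55.9% of all genes, DESeq2 called 4 against 56.9%, and limma with quantile normalization or array weights called 5 against 56.2 and 58.5%. The share of members called lay near the background in each case and is not a result about the members. In bulk samples fewer cells with a transcript and less of it per cell cannot be told apart.

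Junb ranged from 464 through a median of 1027 to 2878 normalized counts in the 15 luminal libraries and from 1102 through 2608 to 4534 in the 15 basal ones. The ranges overlapped, and the luminal libraries that reached into the basal range included those with high Clec2d. Junb was lower in luminal cells by 1.14 ± 0.18 (SE) log2 units, a fold of 0.454 (adjusted p = 4.37e-06). Of the 13 mice with both lineages 10 had less Junb in luminal than in basal cells. The difference was -0.82 with the Clec2d set as a term, and it was called under all 10 alternatives other than leaving out a library (limma, edgeR or DESeq2 adjusted p from 4.8e-09 to 5.75e-05).

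Egr1, a zinc finger factor at chromosome 18, 34992876 to 34998049 of GRCm39, ranged from 1188 through 2305 to 3286 in luminal and from 1936 through 4234 to 6287 in basal libraries. The lowest basal values lay inside the luminal range, all luminal libraries lay below the basal median, and Egr1 was lower in luminal cells in 12 of 13 mice. Its log2 difference was -0.92 ± 0.15 (fold 0.527, limma adjusted p = 3.84e-06), it was -0.90 with the Clec2d set as a term, and quantile normalization brought it to -0.56.

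Atf3, at chromosome 1, 190902493 to 190950241 of GRCm39, ran the other way. It ranged from 543 through 1462 to 2316 in luminal and from 215 through 892 to 1244 in basal libraries, and the luminal value was the higher of the pair in 13 of 13 mice. The difference was 0.88 ± 0.21 log2 units (fold 1.84, limma adjusted p = 0.000592), and 0.69 (adjusted p = 0.00821) with the Clec2d set as a term.

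Ier2, at chromosome 8, 85387960 to 85389483, whose product is a nuclear protein, ranged from 99.3 through 227 to 571 in luminal and from 203 through 320 to 835 in basal libraries. The ranges overlapped widely. Its difference of -0.56 ± 0.19 log2 units (fold 0.678) passed the test (limma adjusted p = 0.0137), but with the Clec2d set as a term it no longer did (-0.48, adjusted p = 0.0579), the highest of its alternatives, which began at 0.0039. Fosl2, a Fos relative without a strong activation domain, had a difference of -0.51 ± 0.23 that did not pass (adjusted p = 0.0597), and it did pass with the Clec2d term (-0.63, adjusted p = 0.0378) and in the 26 libraries of the 13 mice with both lineages, with the mouse as a block (-0.66, adjusted p = 0.000877) or without it (adjusted p = 0.0253). Its alternatives reached an adjusted p = 0.0859.

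The differences of Fos (-0.27 ± 0.18, adjusted p = 0.224), Jun (-0.31 ± 0.15, adjusted p = 0.0835), Jund (0.27), Fosb (0.13) and Fosl1 (-0.11) did not pass limma's test, but the outcome depended on the setting for Jun and Jund. Jun was called by edgeR (-0.36, adjusted p = 0.0441) and with array weights (-0.35, limma adjusted p = 0.0415) and turned to 0.09 under quantile normalization, where Fos (0.02) turned too and Jund was called (0.51, limma adjusted p = 0.0393). The genes of other cells moved with lineage too: all 7 endothelial and all 7 fibroblast markers were higher in basal libraries, with summed levels of 111 to 1272 against 12.8 to 86.0 and of 631 to 1152 against 99.7 to 957 normalized counts. Of the 11 immune markers, 2 (Lyz2 and C1qa) were in the table, summing to 13 to 115 in basal and 7.36 to 30.8 in luminal libraries. Their part in the differences of the members was not tested.

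**Figure D2:**
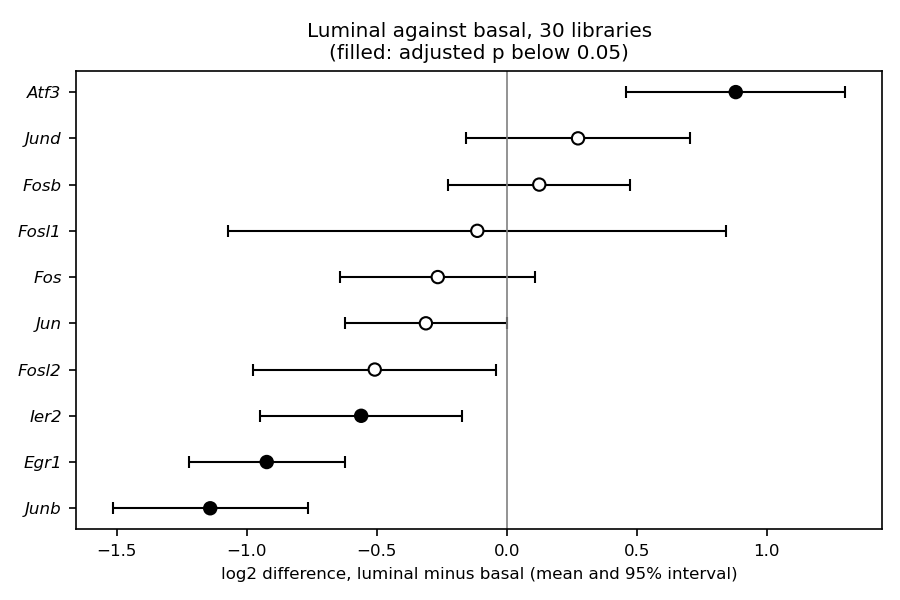
Log2 difference of luminal minus basal libraries for each of the 10 genes, with its 95% confidence interval, from 15 luminal and 15 basal libraries. Filled points passed at an adjusted p under 0.05: Junb, Egr1 and Ier2 lie below 0 and Atf3 above it.

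Between the genotypes of virgin luminal cells, where Rank is deleted in the cells measured, no member passed limma's test. Of the 9 members tested, 2 had an unadjusted p under 0.05, edgeR called 0 and DESeq2 called 1 (Junb), and 0.984% of all genes tested passed limma's test. Over all 10066 genes tested 2226 had an unadjusted limma p under 0.05, edgeR called 138 and DESeq2 648. Junb stood at 967, 1045 and 563 normalized counts in K8imTmG mice 531, 533 and 538 and at 2109.8, 2049.7 and 1923 in K8iΔRank mice 821, 822 and 825. The K8iΔRank values all lay above the K8imTmG ones, in the direction of the Clec2d sets, by 1.29 ± 0.28 log2 units (adjusted p = 0.0627), and a fit of all luminal libraries with the Clec2d set as a term gave 0.01 (adjusted p from 0.0018 to 0.993 over the alternatives). Ier2 stood at 210, 153 and 141 in K8imTmG and at 461, 248 and 227 in K8iΔRank libraries, again without overlap (0.84 ± 0.31, limma adjusted p = 0.159). Egr1 did not overlap either, with 1448 to 1952 in K8imTmG and 1984 to 2801 in K8iΔRank libraries (0.41 ± 0.26, adjusted p = 0.378). Here and in the comparisons below, the share of all genes without overlap was not counted. A lack of overlap between such small groups therefore describes the values and is not a result about a member. Basal markers (5 of 5 tested positive, median 1.16) and fibroblast markers (4 of 4, median 1.22) leaned the same way as Junb, with basal sums of 104 to 331 normalized counts in K8iΔRank and 78.8 to 97.9 in K8imTmG libraries. Endothelial markers (1 of 4 positive, median -0.08) and luminal markers (4 of 12, median -0.34) did not lean that way. The part of any of these markers was not tested. The values of Fos (-0.40), Fosb (0.08), Fosl2 (0.10), Jun (0.21), Jund (-0.51) and Atf3 (-0.44) overlapped between the genotypes.

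In parous luminal cells the Ier2 values again separated the genotypes, in the opposite direction, but no member passed limma's test. Of the 9 members tested, 6 had an unadjusted p under 0.05, edgeR called 0 and DESeq2 called 1 (Ier2, adjusted p = 0.000309), and limma called 0.0991% of all genes. Over all 10090 genes tested 2009 had an unadjusted limma p under 0.05, edgeR called 20 and DESeq2 611. Ier2 stood at 428, 330, 351, 313 and 571 normalized counts in K8imTmG mice 494, 532, 534, 557 and 558 and at 158, 167, 213 and 99.3 in K8iΔRank mice 787, 794, 798 and 830. Every K8iΔRank library lay below every K8imTmG library (-1.33 ± 0.25 log2 units, fold 0.397, limma adjusted p = 0.0735). The Clec2d-low libraries alone, 3 and 4 in number, gave -1.39 (adjusted p = 0.0539), and a fit of all luminal libraries with the Clec2d set as a term gave -1.39 with a call (adjusted p = 0.0407). Over 10 alternatives the difference lay between -1.39 and -1.25, with 4 calls and adjusted p from 0.000309 to 0.0851.

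Jun, the main activating Jun protein, stood at 5015, 2407, 2491, 4179.7 and 3275 in these K8imTmG libraries and at 2219, 2269, 1946 and 1086 in the K8iΔRank ones. The groups did not overlap, and the highest values were those of the Clec2d-high libraries 494 and 557. Its difference was -0.88 ± 0.31 (limma adjusted p = 0.165), and -0.58 in the Clec2d-low libraries alone. Junb (-1.02, adjusted p = 0.182), Fos (-0.72, adjusted p = 0.172), Egr1 (-0.63, adjusted p = 0.193) and Fosl2 (0.98, adjusted p = 0.194) did not pass either, and the Junb difference was -0.51 in the Clec2d-low libraries. Fosb (-0.30), Jund (0.19) and Atf3 (0.37) overlapped between the genotypes.

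In luminal K8imTmG cells Ier2 was higher in parous than in virgin mice, the single member of 9 that passed (2.2% of all genes tested passed). From the virgin values given above (141 to 210) it rose to 313 to 571, by 1.23 ± 0.25 log2 units (fold 2.34, limma adjusted p = 0.0415), with no overlap. All virgin libraries of this comparison were Clec2d-low, and the parous Clec2d-low libraries alone (330 to 571) gave 1.29 (adjusted p = 0.0233), while the parous Clec2d-high libraries stood at 313 and 428. The call was close to the threshold: it held in 1 of the 8 fits that leave out a library, that without parous mouse 494, and the adjusted p ranged from 0.0322 to 0.172 with differences of 1.09 to 1.40. Among 10 other settings 9 kept the call (adjusted p from 0.000122 to 0.0501). Atf3 stood at 2316, 1935 and 1828 in virgin and at 1136, 1137, 1315, 543 and 1693 in parous libraries. These groups did not overlap, yet the difference of -0.88 ± 0.35 did not pass (limma adjusted p = 0.183). The same held for Egr1, at 1448, 1914 and 1952 in virgin and from 2493 to 3286 in parous libraries (0.70 ± 0.25, adjusted p = 0.149). Cell type markers moved in this comparison too. Positive were 2 of 12 luminal (median -1.02, 1 called lower), 0 of 4 endothelial (median -1.32), 2 of 4 basal (median -0.01) and 4 of 5 fibroblast markers (median 0.32). The luminal sums were 15370 to 20947 normalized counts in virgin and 5432 to 12799 in parous libraries. The part of any of these markers was not tested.

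In luminal K8iΔRank cells Junb fell with parity, 1 of the 10 members tested (16% of all genes tested passed). From 1923 to 2109.8 in virgin mice it fell to 877, 796, 1027 and 464 in parous mice 787, 794, 798 and 830 (-1.41 ± 0.26 log2 units, limma adjusted p = 0.00676). The groups did not overlap, and they coincide with the Clec2d sets. Basal markers (0 of 5 tested positive, median -1.25, 1 called) and fibroblast markers (0 of 4, median -0.84, 1 called) leaned the same way. Basal sums were 104 to 331 in virgin and 65.3 to 105 in parous libraries, and fibroblast sums 715 to 855 and 175 to 417. Luminal markers were positive for 4 of 12 (median -0.30, 2 called lower) and endothelial markers for 2 of 3 (median 0.08). The part of any of these markers in the Junb difference was not tested. With the Clec2d set as a term in a fit of all luminal libraries the difference was -0.14 (adjusted p = 0.947, where the lowest among the alternatives was 4.96e-06). Ier2 (-0.94 ± 0.30, adjusted p = 0.055) and Jun (-0.91 ± 0.29, adjusted p = 0.0534) also did not overlap between the stages and missed the threshold.

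The genotype difference had opposite signs in virgin and parous luminal cells for Junb and Ier2, and the test of that difference passed for both, 2 of the 9 members tested against 12.9% of all genes. Ier2 was the steadier (-2.17 ± 0.41 log2 units, 95% interval -3.05 to -1.29, limma adjusted p = 0.0099): it was called in every fit that left out 1 of the 15 libraries. Junb (-2.30 ± 0.53, adjusted p = 0.0174) was called in 14 of those 15 fits, and not without virgin K8imTmG mouse 538 (adjusted p = 0.0568). With the Clec2d set as a term the Junb value shrank to -0.52 (adjusted p = 0.661), whereas that of Ier2 was -2.37 and missed the threshold (adjusted p = 0.0867). The other alternatives reached down to adjusted p = 0.000584 for Junb and 5.55e-05 for Ier2, and 7 of 8 called each. Egr1 (-1.05, adjusted p = 0.0631) and Jun (-1.09, adjusted p = 0.106) did not pass limma's test, and DESeq2 called both (-1.06, adjusted p = 0.0151, and -1.16, adjusted p = 0.0409).

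In virgin basal cells, which keep Rank, Junb was lower in K8iΔRank than in K8imTmG mice, again 1 of 10 members (8.99% of all genes tested passed). It stood at 4439.9, 4534 and 4456 in K8imTmG mice 531, 538 and 568 and at 1241, 1870.4, 1907 and 1567 in K8iΔRank mice 820, 821, 822 and 825. The groups did not overlap and they coincide with the Clec2d sets, and Junb fell by 1.46 ± 0.22 on the log2 scale (limma adjusted p = 0.00853). With the Clec2d set as a term the difference was -0.40 (adjusted p = 1, against 3.86e-08 at the lowest), and under quantile normalization it was -0.64 and not called (adjusted p = 0.139). Jun (-0.63, adjusted p = 0.109) and Fosb (-0.77, adjusted p = 0.141) did not overlap between the genotypes and did not pass, and the value of Jun turned to 0.28 under quantile normalization.

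In parous basal cells no member of 10 passed limma's test, 3 had an unadjusted p under 0.05, edgeR called 0 and DESeq2 called 1, and 0.906% of all genes tested passed limma's. Over all 10592 genes tested 2393 had an unadjusted limma p under 0.05, edgeR called 67 and DESeq2 645. Fosl2 stood at 147, 187, 87.6 and 313 normalized counts in K8imTmG mice 532, 534, 557 and 558 and at 416, 376, 345 and 572 in K8iΔRank mice 787, 794, 798 and 830. All K8iΔRank libraries lay above all K8imTmG ones, by 1.33 ± 0.33 log2 units (limma adjusted p = 0.0606), and by 1.48 among the Clec2d-high libraries (adjusted p = 0.313). Over 10 alternatives 2 called it (adjusted p from 0.0145 to 0.545). Junb (-1.12 ± 0.36, adjusted p = 0.106) and Jun (-0.73 ± 0.31, adjusted p = 0.186, and 0.18 under quantile normalization) overlapped between the genotypes. The count of called members moved with 2 libraries: it was 3 (Fosl2, Jun and Junb) without K8iΔRank mouse 794 and 1 (Fosl2) without K8imTmG mouse 558.

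No member passed limma's test between the stages of basal cells in either genotype. In K8imTmG basal cells 0 of 9 members passed, 2 had an unadjusted p under 0.05 (Fosl2, -1.05, and Jund, -0.46), and neither edgeR nor DESeq2 called one. Over all 10538 genes tested limma called 0% with 969 at an unadjusted p under 0.05, edgeR called 8 and DESeq2 44. In K8iΔRank basal cells 0 of 10 members passed, 1 had an unadjusted p under 0.05 (Fosl2, 0.75), and neither other tool called one. Over all 10525 genes tested limma called 0% with 1036 at an unadjusted p under 0.05, edgeR called 0 and DESeq2 91. The difference between those stage effects passed for 0 of 10 members, with 1 unadjusted p under 0.05 and 0 calls by edgeR or DESeq2. That 1 was Fosl2 (1.80 ± 0.55 log2 units, limma adjusted p = 0.346). Over all 10607 genes tested limma again called 0% with 1082 at an unadjusted p under 0.05, edgeR called 0 and DESeq2 18.

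**Figure D3:**
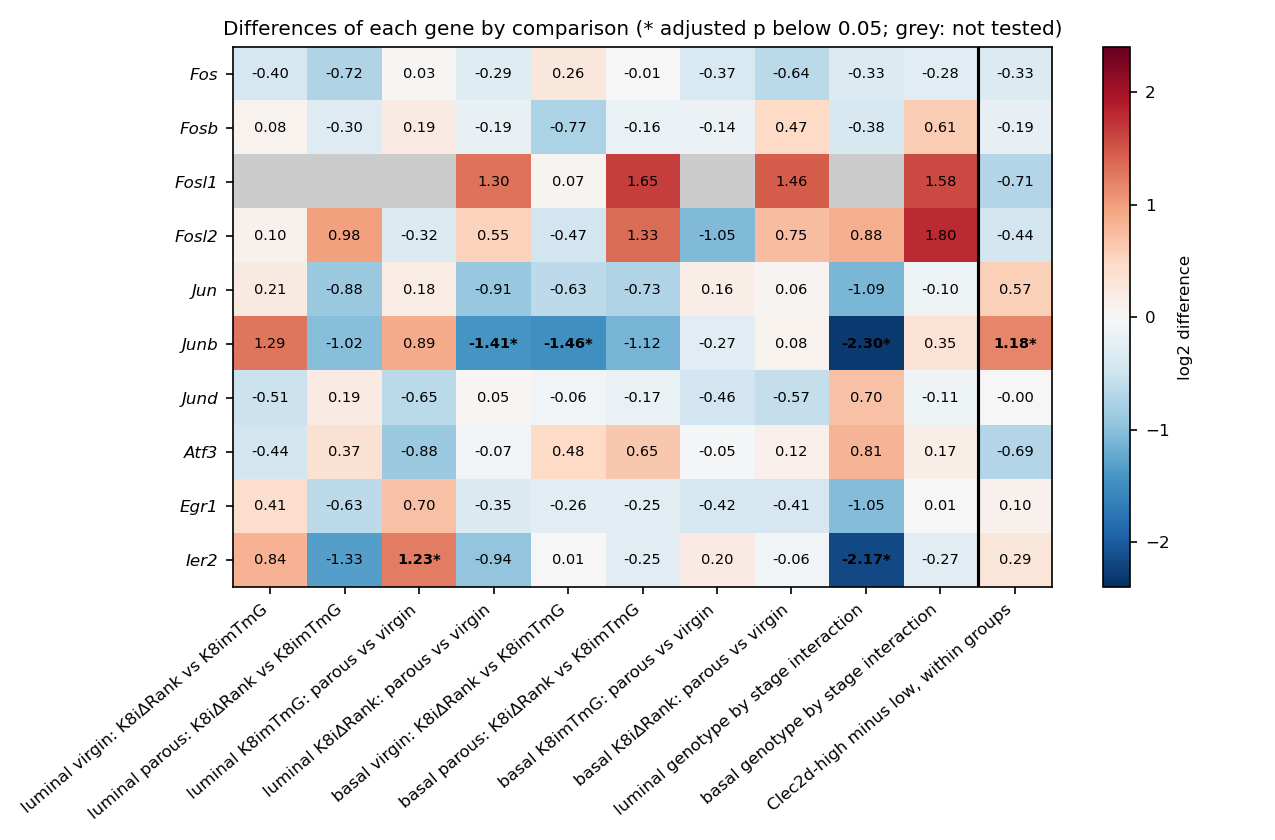
Log2 differences of the 10 genes (rows) in the comparisons of genotype and stage within a lineage, in the interactions, and between Clec2d-high and Clec2d-low libraries within groups (columns), with red higher in the group named first and blue lower. An asterisk marks an adjusted p under 0.05 and grey a gene that was not tested. Asterisks fall on Junb and Ier2 only.

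Junb was also the member that followed the Clec2d sets inside groups. It was higher in Clec2d-high libraries of the same lineage, stage and genotype by 1.18 ± 0.24 log2 units (limma adjusted p = 0.000852), the single member of 10 to pass, where 18.9% of all genes tested passed. In luminal parous K8imTmG mice Junb stood at 942, 971 and 1372 in the Clec2d-low libraries 532, 534 and 558 and at 2878 and 2374 in the Clec2d-high libraries 494 and 557. In basal parous K8iΔRank mice it stood at 1102 and 1272 in the Clec2d-low libraries 787 and 798 and at 3769 and 1634 in the Clec2d-high libraries 794 and 830. Over all luminal libraries the sets did not overlap (464 to 1372 against 1923 to 2878), and over all basal libraries they did (1102 to 1907 against 1634 to 4534). The sets also differ in depth and mitochondrial share, as given above, and the cause of the Junb difference was not tested. Jun (0.57, adjusted p = 0.0969), Atf3 (-0.69, adjusted p = 0.166), Ier2 (0.29), Egr1 (0.10) and Fos (-0.33) did not pass.

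Because both lineages of a gland were digested together and then sorted, the members were compared between the 2 libraries of each of the 13 mice, after the mean of each group had been taken off the log2 values. Atf3 rose and fell together in the lineages of a mouse, with Pearson's r = 0.933 (exact permutation within groups, two-sided, p = 0.00174, adjusted over the 10 members 0.0174) and Spearman's rho = 0.824 (adjusted p = 0.0318, exact permutation). The mouse that stood farthest out was parous K8imTmG mouse 557, which had the lowest Atf3 of all libraries in both lineages (543 luminal and 215 basal). Without the 2 mice farthest from the median r was 0.746. Leaving out each mouse in turn, the adjusted p ranged from 0.00579 to 0.0694 and stayed under 0.05 in 8 of 13 cases, and without mouse 557 r was 0.748 (exact permutation, adjusted p = 0.0637). With the means of the Clec2d sets also taken off r was 0.807 (exact permutation, adjusted p = 0.0694). That setting leaves mouse 557 alone in its group and set, with a deviation of 0, and allows fewer permutations. Of the 13 mice, 10 had their 2 libraries in opposite Clec2d sets.

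Egr1 (r = 0.756), Fosl2 (r = 0.731) and Fosb (r = 0.709) followed with adjusted p = 0.0546 each by exact permutation, just past the threshold. Fosl1 gave r = 0.662 and Ier2 r = 0.520. Fos (r = 0.278), Jun (r = 0.192), Jund (r = -0.302) and Junb (r = -0.316) showed no such relation, although with the means of the Clec2d sets taken off Junb gave 0.679 and Jun 0.751. Under that setting Egr1 (r = 0.925, exact permutation, adjusted p = 0.0347) was the member that passed. Because it allows fewer permutations and sets mouse 557 to 0, the change of the member that passes is not a result about Atf3 or Egr1.

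**Figure D4:**
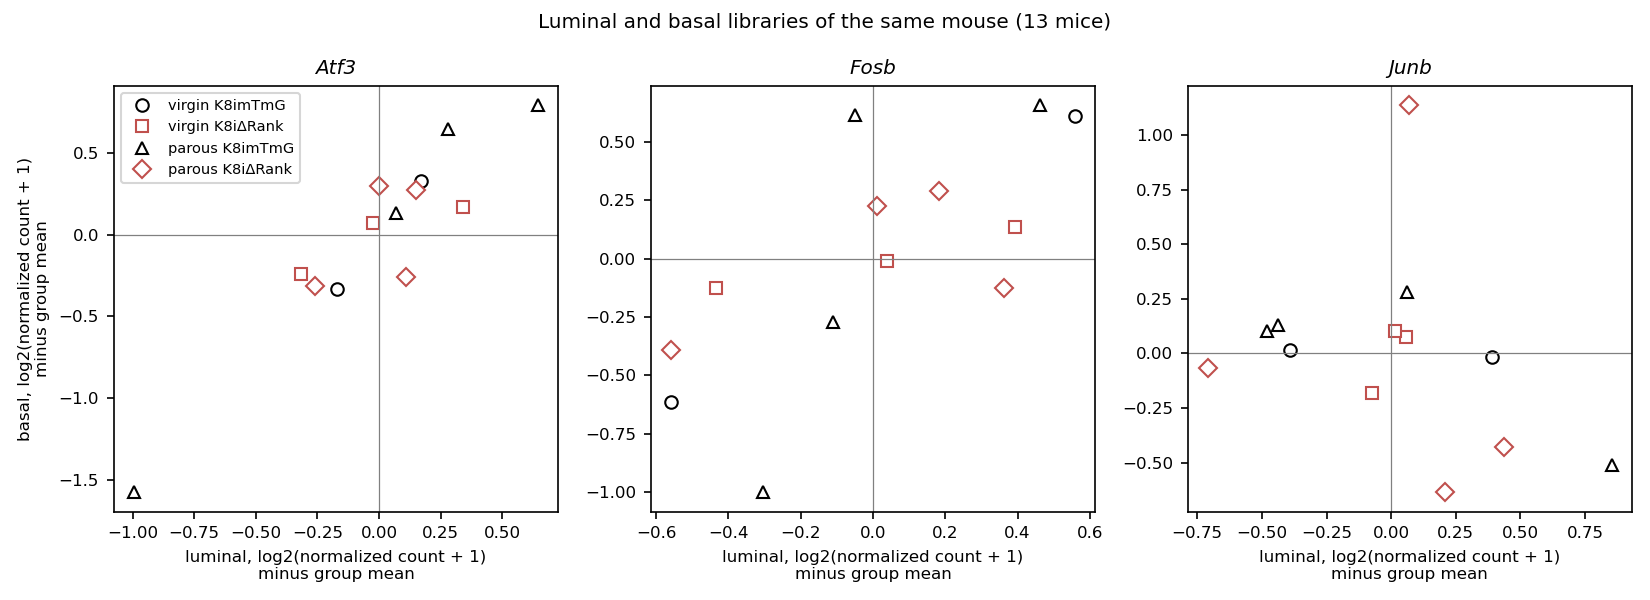
Luminal against basal values of Atf3, Fosb and Junb in the 13 mice with both lineages, as log2 of the normalized count plus 1 minus the mean of the library's group. Each point is 1 mouse and its marker gives stage and genotype. Atf3 (r = 0.933) and Fosb (r = 0.709) lie along a rising line and Junb (r = -0.316) does not.

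Within a lineage, Fosb moved with Fos from mouse to mouse in basal cells. Over the 15 basal libraries, with group means taken off, Fosb gave r = 0.696 with Fos (exact permutation within groups, p = 0.000506, adjusted over 18 relations 0.00911) and rho = 0.743 (adjusted p = 0.00716, exact permutation). It gave r = 0.662 without the 2 libraries farthest out and 0.697 with the means of the Clec2d sets taken off. Atf3 (r = 0.610), Egr1 (r = 0.689) and Jund (r = 0.739) had adjusted p between 0.0801 and 0.0928 by exact permutation. By rank Atf3 passed (rho = 0.732, exact permutation, adjusted p = 0.0214) and Egr1 and Jund did not. In luminal cells no relation with Fos passed. The nearest were Egr1 (r = 0.677), Fosl1 (r = -0.569), Jun (r = 0.537) and Atf3 (r = 0.368), all at an adjusted p = 0.14 by exact permutation. With the means of the Clec2d sets taken off, Jun gave r = 0.823 (adjusted p = 0.00174).

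The genes whose values were most like those of a member were ranked over all 30 libraries by Pearson's r of log2 values with group means taken off, among 5222 genes with a mean normalized count of at least 50. For Jun the nearest were Zfp36 (0.80), an RNA-binding protein that destabilizes short-lived transcripts, Pias1 (0.75), Egr1 (0.74), Tmem106b (0.73) and Osr1 (0.72), and Junb came sixth (0.71). For Atf3 they were Nectin2 (0.84), Tiparp (0.83), Nfil3 (0.83), Csrnp1 (0.82) and Klf4 (0.81), of which Tiparp, Nfil3, Csrnp1 and Klf4 are inducible genes themselves, and Fosb ranked 9th (0.78). For Fos they were Myl12b (0.78), Tspan4 (0.78), Gata3 (0.75), Stat5b (0.75) and Pxk (0.75), and the nearest member was Egr1 at rank 20 (0.68). These values share library, depth and Clec2d set, and they are a description.

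Between the lineages 55.7% of all 11133 genes tested passed limma's test, 3194 higher and 3003 lower in luminal cells. Other immediate early genes, a list of 50 of which 46 were in the table, were lower in luminal than in basal cells more often than higher: 23 were lower, 9 higher and 14 did not pass limma's test, with a median log2 difference of -0.44 against 0.04 over all genes. Among them Egr2, a zinc finger relative of Egr1, stood at 8.40 to 53.3 normalized counts in luminal and 326 to 1225 in basal libraries (-4.58 ± 0.24 log2 units, adjusted p = 4.73e-16). Arc, a regulator of synaptic receptors, was at 0 to 11.4 in luminal and 57.7 to 379.9 in basal libraries (-5.59). Dusp4, a phosphatase of MAP kinases, was higher in luminal cells (8.40 to 58.1 against 0 to 5.35, a difference of 2.87). Of 28 AP-1 partners and upstream kinases 5 were higher and 8 lower in luminal cells, with Maf, a large basic leucine zipper factor, at 0.736 to 10.3 against 29.8 to 252 (-3.41). Of 15 heat shock genes tied to dissociation 2 were higher and 7 lower. The shares called of the partners and of the heat shock genes lay near that over all genes.

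Between the genotypes of luminal cells none of the other immediate early genes passed limma's test, neither of the 44 tested in virgin nor of the 45 tested in parous mice, and of the AP-1 partners and kinases 0 of 27 passed at either stage. At an unadjusted p under 0.05 these were 15 and 14 immediate early genes and 5 and 6 partners and kinases. edgeR called 0 in all 4 cases, and DESeq2 called 3 higher and 3 lower immediate early genes in virgin, 1 higher and 4 lower in parous mice, and 0 partners and kinases. Over all genes 2226 of 10066 in virgin and 2009 of 10090 in parous mice had an unadjusted limma p under 0.05. Of all genes edgeR called 138 and 20, DESeq2 648 and 611, and limma 0.984 and 0.0991%. In virgin luminal cells 1 heat shock gene passed, the mitochondrial co-chaperone Hspe1, at 435 to 661 in K8iΔRank and 196 to 237 in K8imTmG libraries (1.42 ± 0.25 log2 units, limma adjusted p = 0.0363). This comparison coincides with the Clec2d sets, and with the set as a term limma called 0 of the 15 heat shock genes, where 4 had an unadjusted p under 0.05. That fit called 0 of all genes tested, against 0.984% without the term.

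In luminal K8imTmG cells 2 of the 45 other immediate early genes tested were lower in parous mice (2.2% of all genes tested passed). They were Sgk1, a hormone-responsive kinase (308 to 381 normalized counts in virgin and 76.7 to 220.1 in parous libraries, -1.59, limma adjusted p = 0.0397), and the stress gene Gadd45g (624 to 932 and 40.6 to 279, -2.54, adjusted p = 0.0415). Among the partners and kinases the kinase gene Rps6ka1 was lower (-1.18, adjusted p = 0.0415). These calls lay close to the threshold, and fits that leave out a library are reported for the members only. All virgin libraries here were Clec2d-low and the parous ones mixed, and no value inside 1 set is given for these genes. In luminal K8iΔRank cells 6 of the 43 tested were higher and 6 lower in parous mice, where 16% of all genes were called (846 higher and 797 lower). The antiproliferative gene Btg2 (1525 to 2198 in virgin and 710.4 to 914 in parous libraries, -1.24), Btg1 (-0.98) and Zfp36 (-0.88) fell, and Klf4 (1.26), Zfp36l1 (1.06) and Mafk (1.03) rose. The kinase genes Map3k1 (1.43) and Map3k5 (1.54), which act above Jun kinase, rose and Map2k1 (-1.83), which acts above ERK, fell. With them fell 3 heat shock genes, Hspe1 (-1.48), Hspa1b (-1.64) and Hspa1a (-0.79). This last comparison coincides with the Clec2d sets, and with the set as a term limma called 0 genes of the 3 lists, where 4, 1 and 3 had an unadjusted p under 0.05. That fit called 0 of all genes tested.

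In virgin basal cells 6 of 45 other immediate early genes were lower and 1 higher in K8iΔRank than in K8imTmG mice, where 8.99% of all genes were called (453 higher and 501 lower). The matricellular genes Ccn1 (8.59 to 52.7 against 236 to 414 normalized counts, -3.77 ± 0.51, limma adjusted p = 0.00585) and Ccn2 (27.9 to 237 against 649 to 1864, -3.84 ± 0.77, adjusted p = 0.0189) and the early gene Ier5 (-1.18) were among the lower ones, and Klf4 was the higher (1.63). Map3k1 (1.73) and Map3k5 (1.06) were higher and Maf (-1.77) lower, and the heat shock genes Hspe1 (-1.65) and Hspa1a (-1.32) were lower. This comparison too coincides with the Clec2d sets, and with the set as a term limma called 0 genes of the 3 lists, with 0 at an unadjusted p under 0.05. That fit called 0 of all genes tested, and the set difference in it rests on the mixed parous K8iΔRank group alone. In parous basal cells, where the K8imTmG libraries were Clec2d-high and the K8iΔRank ones mixed, 1 of 45 passed, the nuclear receptor Nr4a2, at 179 to 530.2 in K8iΔRank and 43.8 to 126 in K8imTmG libraries (1.96 ± 0.38, adjusted p = 0.0436), together with Map3k1 (1.34, adjusted p = 0.0436). Neither list held a call with the Clec2d set as a term (limma, 14 of 45 and 2 of 27 at an unadjusted p under 0.05). That fit called 0 of all genes tested, and the fit without the term 0.906%.

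In basal cells the stage difference of the other immediate early genes leaned one way in K8imTmG mice and the other way in K8iΔRank mice without any gene passing limma's test. Higher values in parous cells were found for 7 of 45 in K8imTmG mice (median -0.50) and for 34 of 45 in K8iΔRank mice (median 0.28). All K8imTmG libraries here were Clec2d-high, whereas those of K8iΔRank mice were low in virgin and mixed in parous cells. The interaction itself was positive for 39 of 45, with a median of 0.80 against 0.03 over all genes. Values of some markers of other cells lay in the same directions and those of others did not. In the interaction all 10 luminal markers tested were positive (median 1.22), as were both immune markers (median 2.12). Endothelial (median -0.50) and fibroblast markers (median -0.07) were each positive for 3 of 7 there. In K8imTmG parity 0 of 10 luminal (median -0.91) and 0 of 7 endothelial markers (median -1.67) were positive. In K8iΔRank parity, against the lean of the list, 0 of 7 endothelial (median -1.54) and 2 of 7 fibroblast markers (median -0.85) were positive. The luminal sums were 935 to 2359 normalized counts in virgin and 808 to 1216 in parous K8imTmG cells, and 960.4 to 2027 and 1405 to 1675 in K8iΔRank cells. The endothelial sums were 249.96 to 590.4 and 111 to 234 in K8imTmG cells. Their part was not tested. At an unadjusted p under 0.05 were 11, 10 and 15 of the 45, and limma, edgeR and DESeq2 each called 0 of them. Over all genes 969, 1036 and 1082 had an unadjusted p under 0.05 in K8imTmG parity, K8iΔRank parity and the interaction. In the interaction limma called 0, edgeR 0 and DESeq2 18 of all genes. In luminal cells the interaction passed for 3 of these genes in the positive and 5 in the negative direction, and for none with the Clec2d set as a term (limma, 10 at an unadjusted p under 0.05). Of all genes tested 12.9% passed without the term and 5 genes with it.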

How the data were processed

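QuantSeq 3′ libraries with unique molecular identifiers were made from RNA of sorted cells. Per the labels and the study's methods, the authors trimmed reads (BBDuk), aligned them with Bowtie2 to GRCm39 with Gencode vM26, removed duplicates by identifier (UMI-tools), kept genes with more than 10 counts in at least 25% of samples and deposited normalized counts, a signal equal to reads divided by a DESeq2 size factor. Whole reads were recovered from the steps of the values (100% whole within 0.01 reads). They gave the depth of each library, 340445 to 3130420 reads. The SE and confidence intervals given with log2 differences are those of the limma fits.

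Differences were tested with limma 3.58.1 (R 4.3.3, trend) on log2(normalized count + 1) for genes above 10 in at least 25% of the libraries fitted. P-values were adjusted by Benjamini-Hochberg over all genes tested, and an adjusted p under 0.05 is a call. Fold changes are on the log2(value + 1) scale, which understates those of low genes. The lineage fit used all 30 libraries, comparisons of 2 groups used those groups, and interactions the 15 libraries of a lineage. edgeR 4.0.16 (quasi-likelihood) and DESeq2 1.42.0 were run on the recovered reads as alternatives. Other alternatives were pseudocounts of 0.5 and 4, no filter, quantile normalization, array quality weights, 1 fit per lineage, the mouse as a block, leaving out each library, and, added after the data were seen, the Clec2d set as a term. Values of a 3′ tag were not compared between genes.

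Correlations used exact permutations within groups (6912 for the 13 mice). With set means removed, mice were permuted within group and set, where fewer permutations exist. Library pairs of a group differed by more than sampling noise (chi-square per degree of freedom 2.68 to 39.9 in 43 pairs), so none was counted once. Each library is a different mouse within its group. The mouse numbers pair the lineages, since both libraries came from the same animal. Their deviations from group means correlated from -0.309 to 0.43 (median 0.0785), with 6 of 13 over 0.1. For 0 of the 13 luminal libraries was the basal library of the same mouse the one that correlated best. On simulated reads limma recovered 100% of genes changed by 2 log2 units between lineages (10882 genes), 95% between luminal virgin genotypes (9992 genes), 96% between basal parous genotypes (10503 genes) and 57% in the luminal interaction (10210 genes), and 86, 24, 26 and 4% of those changed by 1.

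All 10 members are named throughout. From the fixed lists, up to 3 genes per direction and comparison with the lowest adjusted p and no overlap between groups are named, and the 5 genes most like Fos, Jun and Atf3. A result that this rule picks is not reported here. The members and lists were chosen with earlier results of these data known. Gene positions are those of GRCm39 in GENCODE vM39, and promoter sequences are from RefSeq (GRCm38.p6).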

Additional observations from a re-analysis of the deposited data

Results flagged for a closer look

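Within groups of 4 or 5 libraries, 50 sets of member values were looked at and 2 held a library far from the others, where chance gives about 1 in 20. Jund in basal parous K8iΔRank cells stood at 569.5 normalized counts in mouse 830 and at 1011, 1096 and 1101 in the other mice. Ier2 in basal parous K8iΔRank cells stood at 714.9 in mouse 794 and at 214, 253 and 278 in the other mice. The difference between genotypes changed with stage in luminal cells for Junb (interaction -2.30 ± 0.53 log2 units, limma adjusted p = 0.0174) and for Ier2 (-2.17 ± 0.41, adjusted p = 0.0099).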

How the results depend on the processing

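No value of a member that passed the main test changed direction under any alternative, while 42 of the 105 member values by comparison, none of them called by the reported test or by the setting that turned it, changed sign under at least 1 setting (22 under quantile normalization, Jun, Fos and Egr1 among them). Array quality weights gave 2 called members in luminal virgin genotype, 2 in luminal parous genotype, 4 in luminal K8imTmG parity, 2 in luminal K8iΔRank parity, 2 in basal virgin genotype and 3 in basal parous genotype. DESeq2 gave 1, 1, 2, 3 and 1 in the same order without basal virgin genotype, and 4 in the luminal interaction. edgeR gave 2 in luminal K8iΔRank parity, no filter gave 0 in luminal K8imTmG parity, quantile normalization gave 0 in basal virgin genotype, and 1 fit per lineage gave 1 in luminal parous genotype and 0 in luminal K8iΔRank parity. The Clec2d term gave 1 in luminal parous genotype and 0 in luminal K8iΔRank parity, basal virgin genotype and the luminal interaction. For these the cause was not tested. With the mouse as a block, 5 members were called between the lineages, as without the block in the same 26 libraries. Called correlations within a mouse went from 1 to 5 with a pseudocount of 4, and those with Fos from 1 to 2 with set means removed.

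Leaving out 1 library gave 4 to 5 called members between lineages, 0 to 1 in luminal virgin genotype and luminal K8imTmG parity, 1 to 2 in luminal K8iΔRank parity and the luminal interaction, 1 in basal virgin genotype, 0 to 3 in basal parous genotype and 0 in luminal parous genotype and the other basal comparisons. It gave 0 to 2 correlations within a mouse and 1 to 4 with Fos.

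Counts over all genes depended on the setting: in luminal virgin genotype 99 were called, 5 without a filter, 648 by DESeq2 and 2514 with array weights. In luminal parous genotype these were 10, 14, 611 and 1147, and in basal parous genotype 96, 11, 645 and 2572. In luminal K8imTmG parity they were 226, 106, 1060 and 3993. In luminal K8iΔRank parity 1643 became 227 with 1 fit per lineage, in basal virgin genotype 954 became 1804, and in the luminal interaction 1326 became 2671 with array weights. With the Clec2d term these last 3 were 0, 0 and 5. Depth limits Fosl1, at or under 3 reads in 13 libraries.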
